A study of Mus musculus with 6 samples.

Results

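The genes described here make, bind, sense and destroy retinoic acid: the synthesis enzymes Aldh1a1, Aldh1a2, Aldh1a3 and Rdh10, the degrading enzymes Cyp26a1 and Cyp26b1, the receptors Rara, Rarb and Rarg, and the binding protein Crabp1. They were chosen by name as 10 of the 18194 genes measured. All 10 were found, through 14 of the array's 45101 probe sets (groups of short probes for 1 transcript), and a gene with several is represented by its brightest. All 10 genes are autosomal.

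Total RNA of branchial arch 1, the embryonic source of the jaws, was taken from mouse embryos at embryonic day 11.5 and hybridised to 6 Affymetrix arrays, with 1 arch per embryo. Every embryo carried the conditional Ezh2lox/lox alleles. Ezh2 is the histone methyltransferase of Polycomb repressive complex 2, which keeps developmental genes silent. The 3 labelled-control embryos were Ezh2lox/lox, and the 3 labelled-mutant embryos were Wnt1Cre Ezh2lox/lox, in which Cre is driven in the neural crest lineage. Arch epithelium, vessel endothelium, blood and mesoderm-derived muscle do not descend from that lineage and remain in the dissected tissue. The comparison asks what loss of Ezh2 from the crest changes in the arch.

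Retinoic acid is made from vitamin A. Rdh10 oxidises retinol to retinal, and the Aldh1a enzymes oxidise retinal to retinoic acid. CYP26 enzymes clear it, Crabp1 holds it in the cytoplasm, and the receptors, paired with retinoid X receptors, bind response elements in target genes. In the embryo Aldh1a2 is the main source of the signal in trunk and posterior pharyngeal mesoderm, and too much or too little retinoic acid disturbs the pharyngeal arches and the skull.

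Several facts of the series bear on every value below. Ezh2 itself read 11.63 ± 0.15 under the control label and 11.66 ± 0.01 under the mutant label (log2 signal, mean ± SD, n = 3), and whether its probe set lies in the deleted part was not determined, so that it checks no label. Xist read 5.62 in labelled-control and 13.03 in labelled-mutant arches, and the Y-linked Kdm5d 9.18 and 2.95, so that embryo sex and genotype label cannot be told apart. Of 11 arch mesenchyme markers 6 rose (Dlx1, Dlx2, Dlx5, Dlx6, Hand2 and Msx1) and 1 fell (Pdgfra, a change of -0.63). Over all genes 1.23% rose and 4.3% fell. Barx1, Prrx1, Twist1 and Alx4 did not pass. The summed log2 level of the 11 was 107.1 to 107.7 in labelled-control and 111.6 to 113.1 in labelled-mutant arches. The higher sum is thus not shared by every marker, and the amount of mesenchyme was not tested. Of 4 Hox genes of the second and more posterior arches 3 fell in the labelled-mutant arches, among them Hoxa2 from 7.34 to 4.25 and Hoxb3 from 8.94 to 4.50. Hox genes are textbook targets that Polycomb repressive complex 2 silences. Here the 3 that fell were higher under the control label, and so was the mean of Hoxa3 (5.96 against 5.68), whose change did not pass. Whether the labels of the groups were exchanged could not be settled from these values. If they were, every signed change given here would turn its sign, the fall of Aldh1a2 included. The groups are therefore called by their labels. No feature of the labels names a batch.

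The promoters of 3 members are shown first. Rarb and Cyp26a1 are textbook targets of the receptors, and both carry a retinoic acid response element next to the start. Aldh1a2 is the member whose signal fell. RefSeq entries on GRCm38.p6 gave 13 start sites for 8 of the 10 genes, each with 250 bases before and 50 after the start. Each sequence runs 5′ to 3′ on the gene's own strand, and capitals mark a receptor element, defined as 2 half-sites (AGGTCA or AGTTCA or GGGTCA or GGTTCA) in the same orientation with 5 bases between them, searched on both strands.
Rarb (chr14:16575427-16575726, minus strand): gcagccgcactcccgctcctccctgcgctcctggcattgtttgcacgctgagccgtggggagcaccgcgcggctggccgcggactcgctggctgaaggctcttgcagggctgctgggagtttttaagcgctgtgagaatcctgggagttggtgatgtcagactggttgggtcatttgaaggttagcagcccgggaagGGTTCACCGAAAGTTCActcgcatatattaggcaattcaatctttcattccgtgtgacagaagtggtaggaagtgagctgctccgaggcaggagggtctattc
Cyp26a1 (chr19:37697558-37697857, plus strand): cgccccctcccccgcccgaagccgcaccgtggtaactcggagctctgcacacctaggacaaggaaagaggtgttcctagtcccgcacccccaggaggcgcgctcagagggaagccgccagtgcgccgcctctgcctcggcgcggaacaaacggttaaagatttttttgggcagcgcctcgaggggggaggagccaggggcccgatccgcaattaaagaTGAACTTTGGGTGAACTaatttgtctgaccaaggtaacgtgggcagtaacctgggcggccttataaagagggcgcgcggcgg
Aldh1a2 (chr9:71215539-71215838, plus strand): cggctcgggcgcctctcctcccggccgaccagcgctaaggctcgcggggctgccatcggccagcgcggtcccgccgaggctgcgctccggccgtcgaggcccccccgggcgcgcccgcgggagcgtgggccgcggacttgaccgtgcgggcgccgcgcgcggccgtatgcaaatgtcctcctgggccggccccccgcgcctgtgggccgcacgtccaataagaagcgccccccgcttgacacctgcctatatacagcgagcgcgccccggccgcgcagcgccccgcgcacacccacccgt

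The element of Rarb lies at positions -53 to -37 from the start on the sense strand. A further half-site at -83 is not capitalised because it has no partner at that spacing. The element of Cyp26a1 lies at -32 to -16 and reads on the opposite strand. Such a repeat was found in 0.0974% of the 32851 promoter windows in the table, and among the members in these 2 windows. Repeats with 1 or 2 bases between the half-sites were found in 0.222% and 0.268% of windows, and in 0 of the members' 13. The Aldh1a2 window holds no half-site, against at least 1 in 43.7% of windows. It holds 50 CpG dinucleotides, and its observed-over-expected CpG ratio of 1.11 was higher than that of 98.3% of windows. A match or its absence in 300 bases says nothing of whether a receptor binds.

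Of the 10 genes, Aldh1a2 fell in the labelled-mutant arches, 0 rose and 9 did not pass. The test was limma's moderated test of labelled mutant minus labelled control with Benjamini-Hochberg adjustment over all 18194 genes and a threshold of 0.05. Over all genes 5.53% passed, 4.3% as falls and 1.23% as rises, so that 1 call among 10 genes says nothing of the members as a set. The median log2 change of the members was -0.18, against 0.02 over all genes. The groups did not overlap for 3 members, against 24.9% of all genes. Probe sets were also tested singly, and 1 of the members' 14 passed, against 2.14% of all 45101.

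**Figure D1:**
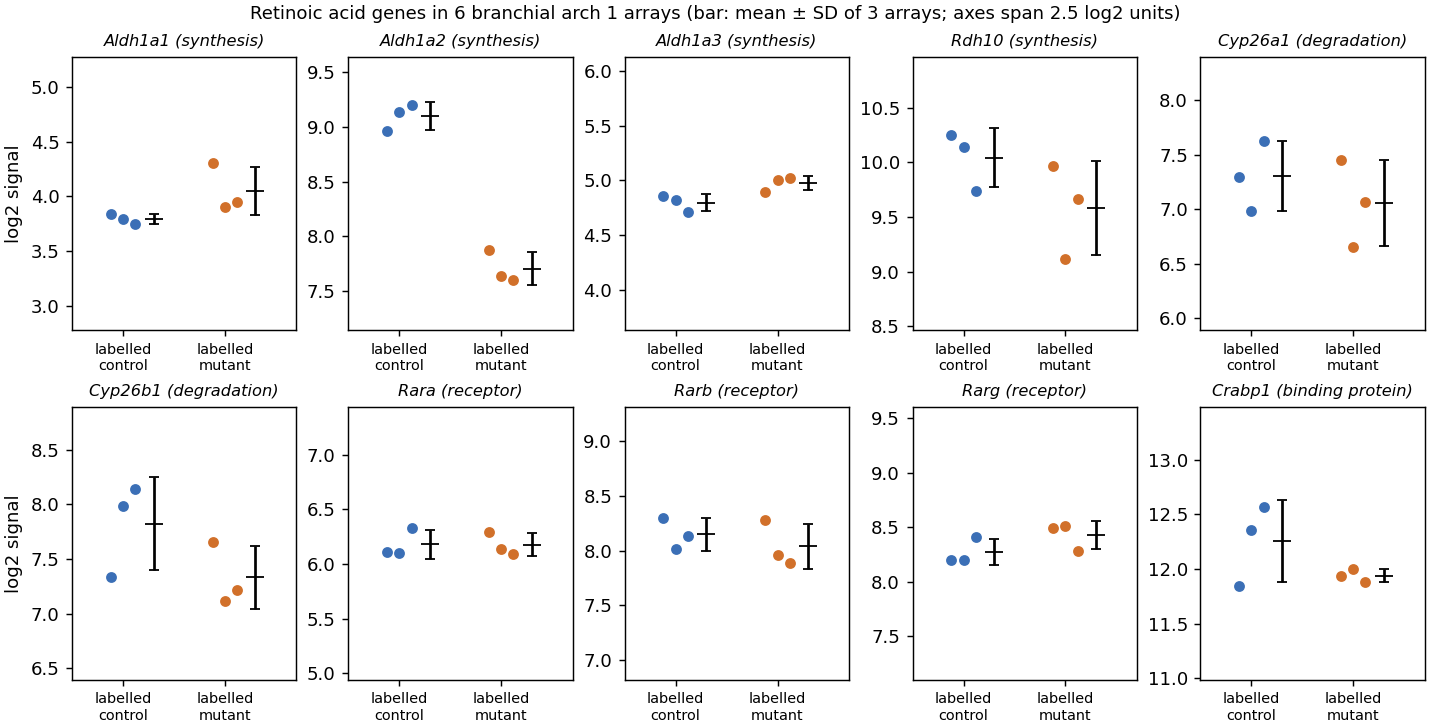
Log2 signal of each retinoic acid gene on the 3 labelled-control (blue) and 3 labelled-mutant (orange) arrays, with the mean ± SD beside the points; every vertical axis spans 2.5 log2 units but starts at a different level. Aldh1a2 is the panel with a wide gap, 8.96 to 9.21 against 7.60 to 7.88.

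Among the synthesis genes, Aldh1a2 (retinal dehydrogenase, probe set 1422789_at) read 8.96, 9.14 and 9.21 under the control label and 7.88, 7.63 and 7.60 under the mutant label. Every labelled-control array was above every labelled-mutant array, and the gap between the groups was wider than the spread within either. The log2 change was -1.40 ± 0.10 (standard error), with a 95% confidence interval of -1.63 to -1.16, or 2.63-fold lower (limma, Benjamini-Hochberg adjusted p = 0.000181). By absolute moderated t it ranked 48 among all genes, and 218 genes, 1.198% of all, fell by at least 1 on the log2 scale and passed. It passed in every alternative run, with changes between -1.48 and -1.34. In bulk tissue, fewer cells of a type and less RNA per cell cannot be told apart.

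Rdh10, the retinol dehydrogenase that supplies retinal, read 10.25, 10.14 and 9.74 under the control label and 9.97, 9.12 and 9.67 under the mutant label. The groups overlapped, since labelled-mutant array 1 was above labelled-control array 3. The log2 change of -0.46 had an interval of -0.94 to 0.02 (limma, Benjamini-Hochberg adjusted p = 0.290). Its second probe set, 1460632_at, ordered the arrays alike in the labelled-mutant group, with 8.87, 8.003 and 8.57, and had a change of -0.48. Left-out arrays moved the change of Rdh10 between -0.65 (without labelled-mutant array 1) and -0.23 (without labelled-mutant array 2), and it passed in none of these fits.

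Aldh1a3, a further retinal dehydrogenase, read 4.85, 4.82 and 4.71 under the control label and 4.90, 5.003 and 5.02 under the mutant label. Although these did not overlap, the change of 0.18 did not pass (limma, Benjamini-Hochberg adjusted p = 0.272). The other probe sets, 1427395_a_at and 1448789_at, had changes of the opposite sign, -0.15 and -0.33. For 1427395_a_at the groups did not overlap either, with the labelled-control arrays above. Every reading of the 3 Aldh1a3 probe sets was under 5.81, the median of an array. Aldh1a1, the third of these dehydrogenases, read 3.84, 3.79 and 3.75 against 4.31, 3.91 and 3.95. Each reading was under 4.33, the 25th percentile of an array, among the dimmest of the array. Its change of 0.26 (interval 0.01 to 0.51) did not pass (limma, Benjamini-Hochberg adjusted p = 0.258) and was 0.13 without labelled-mutant array 1.

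**Figure D2:**
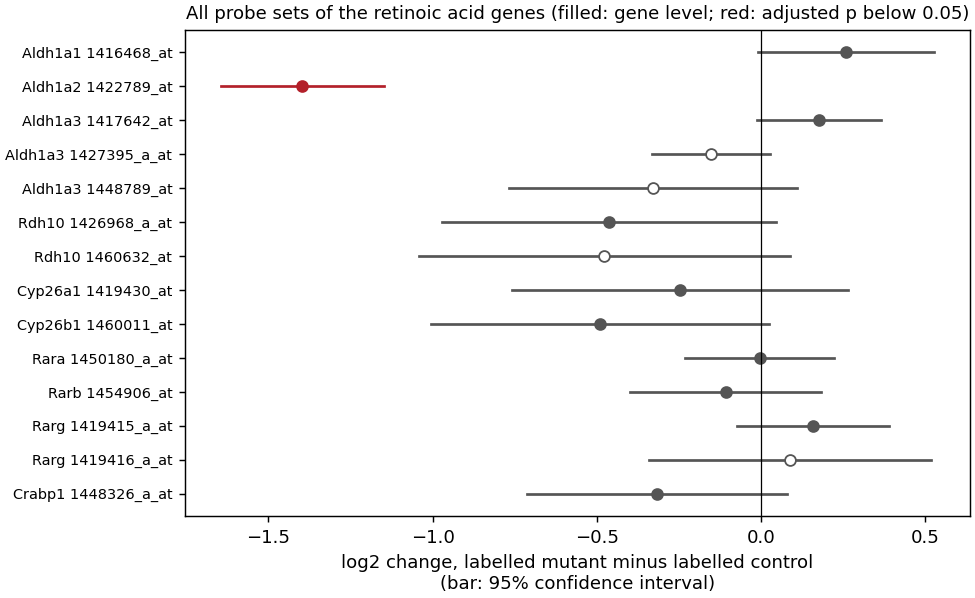
Log2 change of all 14 probe sets of the 10 genes (points) with 95% confidence intervals (bars), filled where the probe set is the gene level and red where it passed over all probe sets. Only the Aldh1a2 probe set is red, and the 3 probe sets of Aldh1a3 lie on both sides of 0.

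Neither degrading enzyme passed. Cyp26a1 read 7.29, 6.98 and 7.63 under the control label and 7.45, 6.66 and 7.06 under the mutant label. The groups overlapped widely, and the change of -0.25 had an interval of -0.73 to 0.24 (limma, Benjamini-Hochberg adjusted p = 0.601). It was -0.44 without labelled-mutant array 1, -0.41 without labelled-control array 2, -0.08 without labelled-control array 3 and -0.05 without labelled-mutant array 2. Cyp26b1 read 7.34, 7.99 and 8.14 against 7.66, 7.12 and 7.22. Here labelled-control array 1 lay among the labelled-mutant arrays, while the other 2 lay above all of them. The change was -0.49 ± 0.21 (standard error; limma, Benjamini-Hochberg adjusted p = 0.267).

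The 3 receptor genes had the smallest absolute changes of the 10 at the gene level, and none passed. Rara read 6.11, 6.10 and 6.33 under the control label and 6.29, 6.14 and 6.10 under the mutant label, a change of 0.00 on rounding (interval -0.22 to 0.21). Its groups covered the same range, and the sign of the change depended on which array was left out. Rarb, whose gene carries the element printed above, read 8.30, 8.01 and 8.13 against 8.28, 7.96 and 7.89. The change of -0.11 had an interval of -0.38 to 0.17 (limma, Benjamini-Hochberg adjusted p = 0.703), which does not reach the fall of Aldh1a2, and ran from -0.22 to -0.03 when arrays were left out. Rarg read 8.20, 8.20 and 8.41 against 8.49, 8.52 and 8.28, overlapping at labelled-mutant array 3, with a change of 0.16 (interval -0.06 to 0.38). Its dimmer probe set, 1419416_a_at, had a change of 0.09. At their widest the gene-level intervals of the receptor genes reached -0.38 and 0.38. In the fit of all probe sets the interval of 1419416_a_at was -0.34 to 0.52. A p-value above the threshold does not show that the levels of these genes were alike.

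Crabp1, the cytoplasmic binding protein and a marker of cranial neural crest, read 11.84, 12.36 and 12.57 under the control label and 11.94, 12 and 11.88 under the mutant label. Labelled-control array 1 was the lowest of all, and the other 2 were above every labelled-mutant array. The change of -0.32 did not pass (limma, Benjamini-Hochberg adjusted p = 0.356). Without labelled-control array 1 it was -0.53 and passed (adjusted p = 0.0241), which raised the number of members called to 2. Cyp26b1, also low on that array, then had a change of -0.73 (adjusted p = 0.0531, both limma with Benjamini-Hochberg adjustment). Without labelled-control array 3 the change of Crabp1 was -0.16 and that of Cyp26b1 -0.33 (adjusted p = 0.606 and 0.461, limma with Benjamini-Hochberg adjustment).

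The members also varied between arrays of 1 label. Labelled-mutant array 1 was the highest of its group for 7 of the 10 genes, and labelled-mutant arrays 2 and 3 were lowest for 4 and 5. In the labelled-control group array 3 was the highest for 6 genes and array 2 for 0. Within-group SDs ran from 0.05 for Aldh1a1 in the labelled-control arches to 0.43 for Rdh10 in the labelled-mutant and for Cyp26b1 in the labelled-control arches. For Aldh1a2 they were 0.13 and 0.15.

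**Figure D3:**
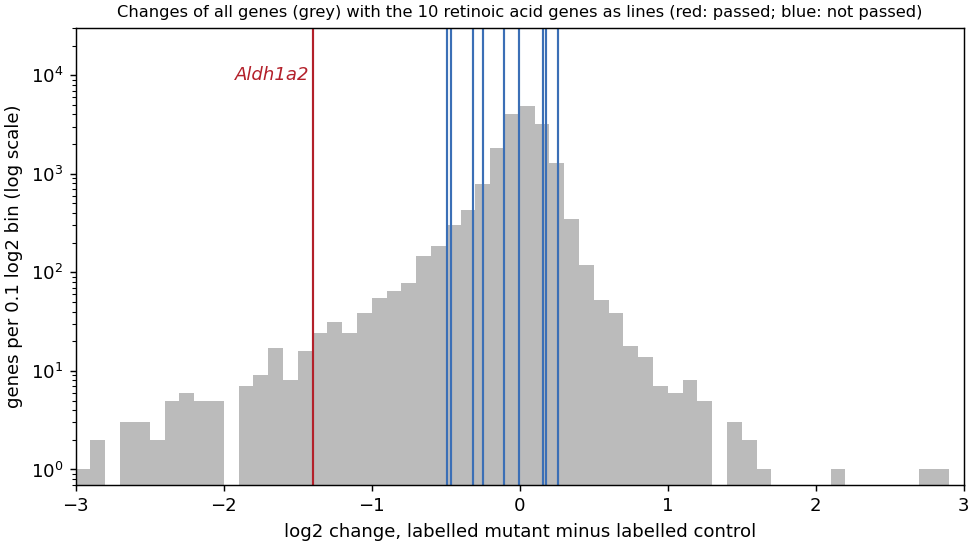
Number of genes per bin of log2 change, labelled mutant minus labelled control (grey, logarithmic vertical axis, shown from -3 to 3), with vertical lines at the 10 retinoic acid genes. The 9 blue lines lie between -0.49 and 0.26, and the red line of Aldh1a2 stands apart at -1.40.

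The genes most like Aldh1a2 over the 6 arrays were Egfl6, Pnma2 and Lhx9, with Pearson correlations of 1.000, 0.999 and 0.998. The correlation is a description over 6 arrays that share 2 groups, and 927 genes, 5.10% of all others, had a correlation above 0.9. Egfl6, a secreted matrix protein gene, read 8.40, 8.69 and 8.72 under the control label and 6.54, 6.19 and 6.12 under the mutant label. Lhx9, a LIM homeobox gene, went from 8.12 ± 0.26 to 3.93 ± 0.28 and Pnma2 from 6.50 ± 0.11 to 4.84 ± 0.13 (n = 3).

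Some markers of other tissues fell with Aldh1a2, beside 4.3% of all genes called as falls and 1.23% as rises. Of 4 muscle markers 3 fell, Myog the most (-2.25), then Myod1 and Pax7, while Myf5 (-0.19) did not pass. The summed log2 level of the 4 was 28.3 to 29.1 in labelled-control and 22.5 to 26.2 in labelled-mutant arches. Of 5 neuronal markers 3 fell, Nefl the most (-2.56), then Tubb3 and Isl1. Elavl3 (-0.04) and Neurod1 (-0.13) did not pass. The neuronal sums were 36.2 to 36.6 against 30.9 to 32.6, and a few genes can carry such a sum. Of 3 glial markers Sox10 alone fell, with sums of 22.4 to 25.2 against 21.5 to 22.2. Macrophage markers gave 1 fall among 4, with sums of 28.4 to 29.1 against 26.9 to 27.8. The 4 Hox genes of the second and more posterior arches summed to 30.0 to 30.3 against 20.7 to 21.9. Epithelial, endothelial and erythroid markers gave 1 rise and 0 falls among 13, and their sums overlapped between the groups. The part of these tissues in the fall of Aldh1a2 was not tested.

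The rest of the pathway was read from a list of 38 further genes of retinoid handling, receptor partners, coregulators and textbook targets, of which 30 were measured and 8 were not analysed here. Of the 30, 3 fell, 1 rose and 26 did not pass, and their median change was -0.01 against 0.02 over all genes. The 4 calls among 30 stand beside 5.53% called over all genes. The groups did not overlap for 14 of the 30, against 24.9% of all genes.

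Genes that bring vitamin A into cells or store it did not pass. Rbp4, the retinol carrier of plasma, read 6.32, 6.22 and 6.74 under the control label and 5.52, 5.75 and 6.06 under the mutant label. The groups did not overlap, and the change of -0.65 had limma's Benjamini-Hochberg adjusted p = 0.0654. Stra6, the membrane receptor for Rbp4, had a change of 0.27. In the retinol and retinal group the gene with the largest moderated t was Rdh11, at -0.24 (limma, Benjamini-Hochberg adjusted p = 0.583). Dhrs3, which reduces retinal back to retinol and is induced by retinoic acid, read 7.34 ± 0.13 and 7.31 ± 0.20 (n = 3), a change of -0.03. The binding protein genes Crabp2 and Fabp5 had changes of 0.02 and 0.12. Of the retinoid X receptors, Rxrg had a change of -0.40 (adjusted p = 0.155), Rxrb of -0.14 and Rxra of -0.07, where a second Rxra probe set, 1425762_a_at, had 0.28.

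Calls were found among coregulators and targets. Ncoa1, a coactivator of nuclear receptors, read 9.12, 9.14 and 9.32 under the control label and 8.54, 8.002 and 8.005 under the mutant label. All labelled-control arrays were higher, and the fall was by 1.01 (± 0.15, standard error; limma, Benjamini-Hochberg adjusted p = 0.0059). Its other probe sets, 1418594_a_at and 1443397_at, had changes of -0.74 and -0.19. Ncoa3, a related coactivator, read 8.43, 8.41 and 8.40 against 8.78, 8.82 and 8.72 and rose by 0.36 (adjusted p = 0.0232), but it missed the threshold without labelled-control array 2 (0.0685) or labelled-mutant array 1 (0.0749), 2 (0.126) or 3 (0.0801), all with limma and Benjamini-Hochberg adjustment. The second Ncoa3 probe set, 1422737_at, had a change of 0.23. Nrip1, a receptor corepressor, had a change of 0.30 that did not pass (adjusted p = 0.0903).

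Of 9 targets measured, 2 fell and 7 did not pass, beside 4.3% of all genes called as falls. Hoxb4, a Hox gene of the hindbrain and trunk, read 6.85, 6.57 and 6.64 under the control label and 5.97, 5.45 and 5.62 under the mutant label. It fell by 1.01 (limma, Benjamini-Hochberg adjusted p = 0.0043), and its second probe set, 1451761_at, had a smaller change of -0.50. Meis1, a homeobox cofactor of Hox proteins, fell by 0.95, from 10.17 ± 0.24 to 9.22 ± 0.08 (n = 3; adjusted p = 0.0033), and its further probe sets, 1443260_at and 1459423_at, had changes of -1.56 and -0.04. Hoxb4 is a Hox gene like Hoxa2 and Hoxb3, whose falls are given above. Hoxb1, a direct receptor target of the hindbrain, stayed under the 25th percentile throughout, at 3.24 ± 0.14 and 3.07 ± 0.04 (n = 3). Nr2f2, an orphan nuclear receptor gene, had a change of 0.68 that did not pass (adjusted p = 0.0739) and Tgm2, the transglutaminase gene, one of -0.33 (adjusted p = 0.140, both limma with Benjamini-Hochberg adjustment). With signals floored at each array's 20th percentile, Ncoa1, Hoxb4 and Meis1 no longer passed (limma, Benjamini-Hochberg adjusted p = 0.0754, 0.0660 and 0.0557), although their own signals lay above that floor.

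**Figure D4:**
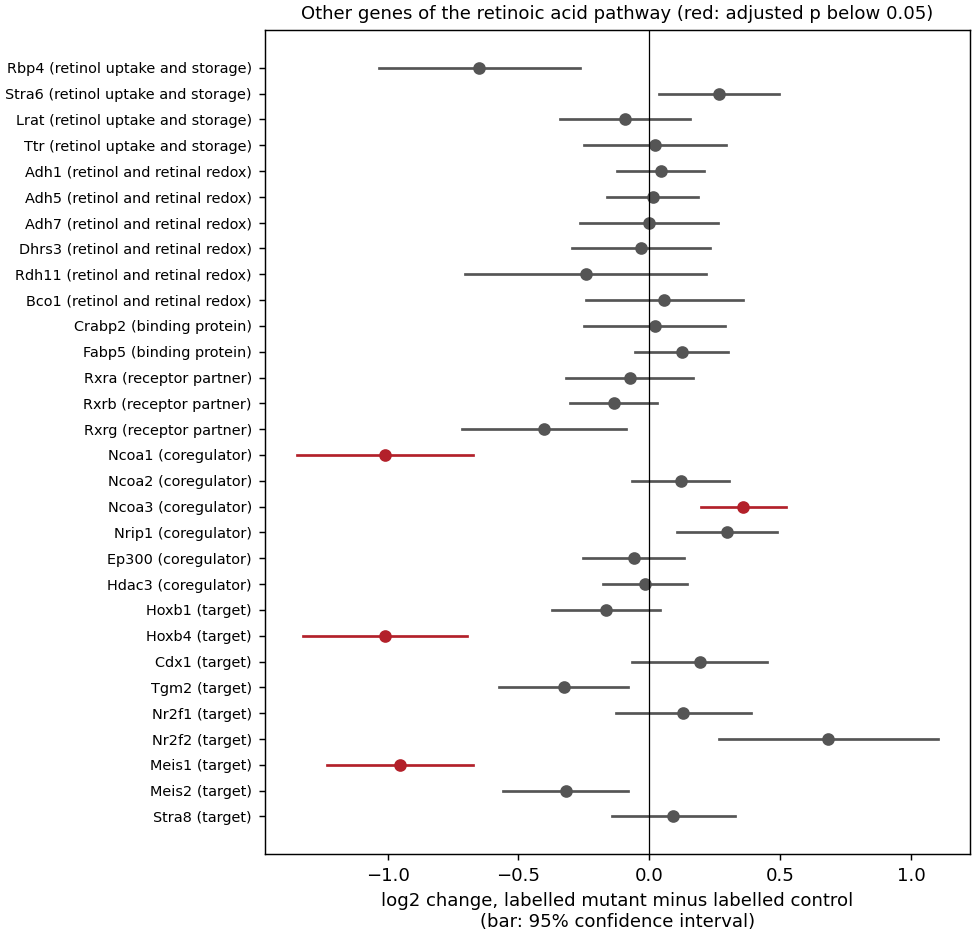
Log2 change (points) with 95% confidence intervals (bars) of the 30 other retinoic acid pathway genes, with the role of each in brackets and red where limma's adjusted p was below 0.05. Ncoa1, Hoxb4 and Meis1 lie near -1, and Ncoa3 is the single red point above 0.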

How the data were processed

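The authors deposited log2 values, 1 per probe set and array, which have 1 and the same distribution on the 6 arrays (median 5.81). The log2 scale is inferred from the range of 2.63 to 14.68. With equal distributions, a shift common to all genes would be hidden. The software, background correction and summary were not given in the sources used here. Detection calls were not used. The platform annotation named the probe sets, and 34958 with 1 symbol entered the gene level, 1 probe set per gene. Labelled mutant minus labelled control was fitted with limma 3.58.1 (lmFit, eBayes; R 4.3.3), two-sided, with Benjamini-Hochberg adjustment over 18194 genes. The embryos are called biological replicates in the labels, and p-values refer to their spread. The procedure was tested on simulated data, drawn as independent normal values with known shifts added. Such data hold no sex split and no difference in tissue make-up. With 3 arrays against 3, an exact permutation test of 1 gene cannot go below p = 0.1 and was not used. No array repeated another, with 0.302% to 0.816% of values equal between arrays. The number of arrays limits the precision.

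The members and lists were chosen with earlier results of these data known. The genes named are the members, every other pathway gene that passed, the gene with the largest absolute t in each role, the 3 genes most correlated with the member of largest absolute t, Ezh2 and sex-linked genes; further pathway genes, markers and probe sets are named as examples chosen after their values were seen. Promoter sequences are RefSeq's on GRCm38.p6, searched with Python 3.11.15, and figures were drawn with matplotlib 3.10.9. Alternatives were a replicate block, quantile normalization, median centring, the mean of probe sets, trend and robust settings, a floor at the 20th percentile, leaving out dim genes and leaving out each array.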

Additional observations from a re-analysis of the deposited data

How the results depend on the processing

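Aldh1a2 passed under all 13 alternatives. The number of members called stayed at 1 under every alternative except 1 and was 1 to 2 when arrays were left out in turn, the 2 arising without labelled-control array 1. Of 18194 genes, 1007 passed in all, 657 with a replicate block, 329 with floored signals, and 435 to 1016 when arrays were left out, with 550 without labelled-control array 2, 478 without labelled-mutant array 2 and 435 without labelled-mutant array 3. With floored signals 1 other pathway gene passed against 4, which was Ncoa3. The floor was 4.08, and the causes of these differences were not tested. Leaving out arrays gave 3 to 6 pathway calls, with Rxrg added as a fall without labelled-control array 1, and Nr2f2 and Nrip1 as rises without labelled-control array 3 (limma, adjusted p = 0.0174, 0.0371 and 0.0433). The replicate block left the calls of the members as they were and the number of pathway calls at 4, losing Ncoa3 and gaining the fall of Rbp4 (limma, adjusted p = 0.0850 and 0.0205). Deviations of same-numbered arrays correlated at -0.21, -0.12 and -0.07, which gave no sign that the numbers pair the embryos. With 3 arrays per group such values cannot exclude a pairing. The change of Aldh1a3 turned to -0.10 with the mean of its 3 probe sets, since these differ in sign. That of Rara ran from -0.062 to 0.072 when arrays were left out, and the cause was not tested. Low signals limit what can be said of Aldh1a1 and Hoxb1.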

Other observations

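Enzymes related to the members were read by gene family, chosen after the data were seen. Of 17 further Aldh genes 2 fell, 0 rose and 15 did not pass, beside 5.53% of all genes called, 4.3% as falls. Aldh6a1, a mitochondrial enzyme of valine breakdown, fell by 0.43 and Aldh1l2, a mitochondrial enzyme of folate metabolism, by 0.50 (limma, Benjamini-Hochberg adjusted p = 0.0145 and 0.0211). Aldh1a7, a close paralog of Aldh1a1, read 7.59 under the control label and 8.20 under the mutant label, a change of 0.61 that did not pass. Of 17 Rdh and Dhrs genes not described above, 0 passed with limma, and their changes lay between -0.31 and 0.26. An unadjusted limma p under 0.05 was found for 1 of the 17, against 3405 of all 18194 genes.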
